A study of Mus musculus with 10 samples.

Results

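Myelin and mature oligodendrocyte genes were examined in brain endothelial cells (BECs) isolated from APP/PS1 and control mice. The set was the named genes Mbp, Mobp, Mog, Mag, Cnp, Cldn11, Mal, Ermn and Gjc3, matched by symbol to the Ensembl identifiers of the expression table. Of these 9 genes, 8 were among the 14106 genes of the table, and Mog was not analysed here. RNA was sequenced in bulk in 10 libraries, 5 per genotype. All mice were females aged 1 year, and their cortices were taken after perfusion with PBS. APP/PS1 mice carry transgenes for an amyloid precursor protein that is part mouse and part human and bears the Swedish mutation, and for a mutant human presenilin 1, which the study describes as expressed throughout the body, and the control mice are labelled WT and were of the same C3H/BL6 background. The labels name no treatment. Tissue of both groups was dissociated with collagenase/dispase, myelin debris was taken out with myelin removal beads, and CD31+ cells were then enriched with CD31 microbeads, so the isolates of both genotypes had passed a myelin removal step. How many mice entered a library is not given in the sources used here. Each SD below is the spread between libraries in batch-corrected values, which may be partly technical.

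Oligodendrocytes wrap axons of the central nervous system in myelin, a stack of compacted membrane rich in lipid and in a small number of structural proteins. The transcription factors Sox10, Olig1, Olig2 and Myrf drive the lineage and switch on the genes of myelin. Messenger RNAs of Mbp and Mobp are carried out of the cell body along the processes and translated close to the myelin sheath, whereas most other myelin proteins are made in the cell body. Brain endothelial cells form no myelin.

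Upstream sequences were read from the RefSeq promoter table (build GRCm38.p6) for 8 of the 9 genes, Mog among them, and no sequence was read for Mbp. Each sequence covers the 250 bases before the RefSeq start, written 5′ to 3′ on the strand of the gene. By the GENCODE M21 positions given below, the last 35 bases of the Mobp and Cnp sequences and the last 10 of Mag lie within the gene. Mag had 3 entries, and the one nearest to the GENCODE start was used. Mobp (chr9:120149492-120149741, plus strand) and Mag (chr7:30914864-30915113, minus strand) are shown because both were lower in 4 pairs of libraries and higher in the remaining one, and Cnp (chr11:100574689-100574938, plus strand) and Gjc3 (chr5:137963099-137963348, minus strand) because both were lower in all pairs. Capitals mark matches on either strand to ACAAAG or ACAATG, letters that SOX factors can bind, or to CTGGCAC, letters that Myrf can bind.
Mobp: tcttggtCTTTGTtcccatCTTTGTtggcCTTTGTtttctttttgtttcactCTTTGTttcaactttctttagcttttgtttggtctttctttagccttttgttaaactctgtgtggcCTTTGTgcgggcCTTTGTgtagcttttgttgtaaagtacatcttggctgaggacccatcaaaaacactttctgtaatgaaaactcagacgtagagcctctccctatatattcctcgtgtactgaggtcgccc
Mag: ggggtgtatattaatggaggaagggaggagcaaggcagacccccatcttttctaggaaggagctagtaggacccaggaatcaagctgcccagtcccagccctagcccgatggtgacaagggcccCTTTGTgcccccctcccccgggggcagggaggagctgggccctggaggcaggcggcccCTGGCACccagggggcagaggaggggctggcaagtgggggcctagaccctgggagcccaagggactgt
Cnp: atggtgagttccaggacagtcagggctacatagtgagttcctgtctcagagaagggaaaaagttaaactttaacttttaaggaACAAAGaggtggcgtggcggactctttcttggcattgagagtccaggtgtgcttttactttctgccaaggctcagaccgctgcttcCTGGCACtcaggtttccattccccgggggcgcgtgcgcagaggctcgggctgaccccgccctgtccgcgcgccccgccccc
Gjc3: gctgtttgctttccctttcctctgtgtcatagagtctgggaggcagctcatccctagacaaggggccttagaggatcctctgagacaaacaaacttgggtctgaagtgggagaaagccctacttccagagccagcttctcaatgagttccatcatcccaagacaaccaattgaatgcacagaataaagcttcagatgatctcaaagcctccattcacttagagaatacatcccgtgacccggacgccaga
ACAAAG or its reverse complement was found in 3 of these 8 sequences (Mobp, Mag and Cnp), compared with 16.5% of 32851 promoters of this length, and 6 of these matches lay in the Mobp sequence. CTGGCAC was found in 2 of the 8 (Mag and Cnp), compared with 4.19% of promoters. ACAATG was found in 1 of the 8 (Ermn), compared with 10.7%, and the TATA box letters TATAAA in 0 of the 8, compared with 12.4%. No matches overlapped. The letters were thus found in genes of either pattern, and a match in these windows says nothing about whether a factor was bound.

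Gene positions below are those of GENCODE M21 (GRCm38). Levels are given as log2 CPM, the log2 of counts scaled to a common library size (CPM) with a prior count of 3, as deposited after the authors' batch correction. In these values, the mean of the control and the APP/PS1 library of the same replicate number was nearly equal over the 5 pairs for most genes, with an SD of the pair means under 0.05 log2 units in 92.5% of all genes. Of the members, 3 were under this limit (Cnp, Cldn11 and Mal), whereas the pair means of Mbp ran from 3.26 in pair 2 to 5.18 in pair 3 and those of Mobp from 1.35 to 3.31. The comparison was made on the difference within a pair (APP/PS1 minus control). In genes with nearly equal pair means, the SDs of both genotypes are close to the same quantity. Neither of them gives the spread between libraries before the correction. The adjusted counts behind the values summed to between 22371766 and 126686149 per library, lowest in both libraries of replicate 1. Endothelial markers were at high and even levels in these batch-corrected values. For the 14 genes listed, the log2 of their summed CPM was 14.84 to 14.95 in control and 14.865 to 14.97 in APP/PS1 libraries, so the ranges overlapped. Since the correction itself evens out pairs, this evenness is no check of purity. The libraries of pair 2 stood apart from the others in several members, and results that depend on them are given with and without that pair.

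In 4 of the 5 pairs, the myelin genes Mbp and Mobp were 10.1-fold to 74.9-fold lower in APP/PS1 than in control BECs, and in pair 2 they were 55.4-fold and 67.9-fold higher. Gjc3, Cldn11 and Cnp were lower by smaller amounts in all pairs, and Mal was at nearly the same level in both genotypes. The genotypes were compared with limma on all 14106 genes, with replicate number as a block. At an adjusted p under 0.05 (Benjamini-Hochberg over all genes), 0 of the 8 members and 0 of all genes were called (0.0%), whereas 1133 genes had an unadjusted p under 0.05. Limma-voom on the adjusted counts also called 0 genes. The mean difference was below 0 in all 8 members, compared with 51.8% of all genes, and the median log2 fold change of the members was −2.06, against −0.0038 for all genes. Differences beyond 1 log2 unit below 0 were found in 5 of the 8 members and in 1.42% of all genes. An unadjusted p under 0.05 with a lower value in APP/PS1 BECs was reached by 4 members (Gjc3, Cnp, Cldn11 and Ermn) and by 5.91% of all genes, whereas 0 members and 2.13% of all genes were higher. Without the replicate block, limma called Gjc3, Cnp and Cldn11 among 648 genes. Without pair 2, the count at an unadjusted p under 0.05 was 7 members, with adjusted p values of 0.113 or more, and in the same fit 8.38% of all genes were lower and 5.86% higher. Pair 2 was singled out because of its own values in the members, so larger differences without it are no independent result. Leaving out any other single pair gave from 2 members (without pair 4) to 4 members (without pair 3).

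Mbp (ENSMUSG00000041607, chr18:82475146-82585637, plus strand) encodes myelin basic protein, which holds the cytoplasmic faces of the myelin membrane together. Its level was 7.31, 0.37, 6.84, 6.10 and 7.15 log2 CPM in control libraries 1 to 5. In APP/PS1 libraries 1 to 5 it was 1.66, 6.16, 3.51, 1.24 and 2.91 log2 CPM. The libraries with the high values were controls 1, 3, 4 and 5 and APP/PS1 library 2, so the groups overlapped. In the adjusted counts, Mbp stood at 3688, 155, 8072, 7597 and 17513 in the control libraries. The corresponding APP/PS1 libraries held 69, 7446, 790, 257 and 802 adjusted counts. Adjusted counts are not reads, so they do not give the number of reads behind the contrast within a pair. Mbp was 50.4-fold lower in the APP/PS1 library of pair 1, 10.1-fold lower in pair 3, 29.1-fold lower in pair 4 and 18.9-fold lower in pair 5, but 55.4-fold higher in pair 2. Over the 5 pairs its log2 fold change was −2.46 (standard error, SE, 1.74, limma adjusted p = 0.817), with a 95% interval from −6.76 to 1.84. Without pair 2 it was −4.52 (adjusted p = 0.113 from limma, the lowest of the values of up to 1.0 over all alternatives).

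Mobp (ENSMUSG00000032517, chr9:120149707-120181484, plus strand) encodes a small basic protein of compact myelin whose messenger, like that of Mbp, travels to the processes. It stood at 5.43, −1.69, 5.13, 5.41 and 5.26 log2 CPM in control libraries 1 to 5. The APP/PS1 libraries were at −0.79, 4.40, 1.50, −0.09 and 1.04 log2 CPM. The same 5 libraries as for Mbp were high, with levels from 4.40 to 5.43, and the other 5 lay lower, down to −1.69. Within pairs, Mobp was 74.9-fold, 12.4-fold, 45.3-fold and 18.6-fold lower in APP/PS1 BECs of pairs 1, 3, 4 and 5, and 67.9-fold higher in pair 2. Its log2 fold change was −2.70 (SE 1.86, limma adjusted p = 0.815) over all pairs and −4.90 without pair 2 (adjusted p = 0.130, alternatives 0.13 to 1). Both genes ran nearly in parallel over the libraries. An exon of Mobp is shared with Gm38642 on the same strand. Per kilobase of exon, Mbp lay above Mobp by 0.38 to 2.14 log2 units in the 10 libraries, with a median of 1.57, while each gene alone spanned about 7 log2 units (6.94 for Mbp and 7.12 for Mobp). Of all 14106 genes, 2 were lower by over 3 log2 units in each of pairs 1, 3, 4 and 5 and higher by over 3 in pair 2, and these were Mbp and Mobp, a count made after their values were seen.

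**Figure D1:**
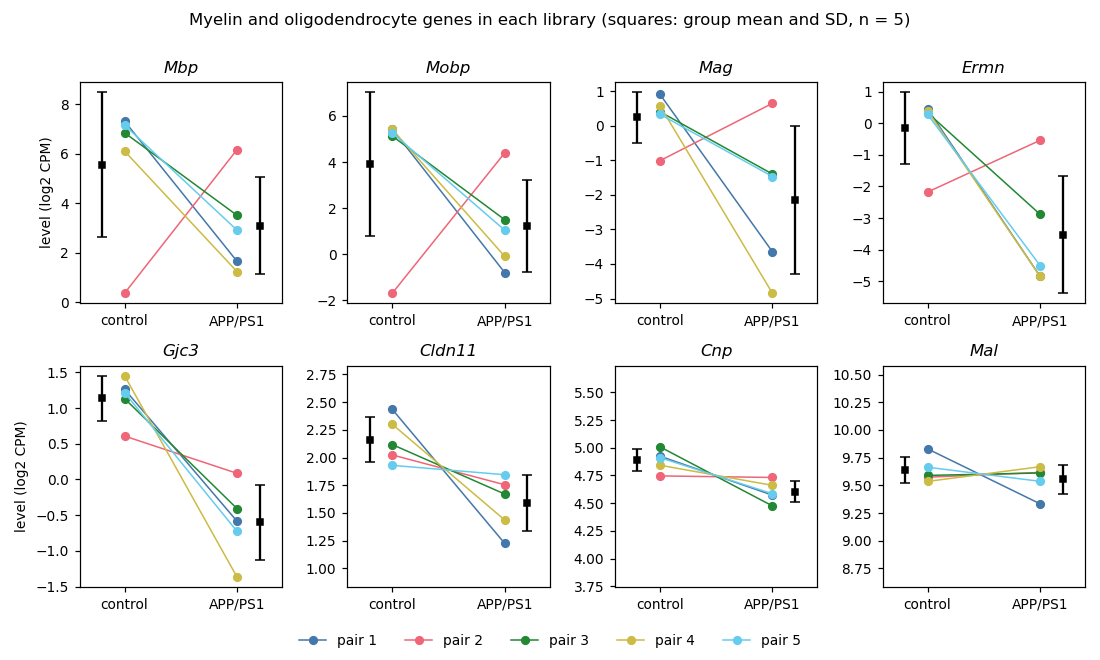
Level of each of the 8 genes (log2 CPM, vertical axes with different ranges) in control and APP/PS1 libraries, with a line joining the libraries of a pair and squares with bars for the group mean and SD (n = 5). The line of pair 2 runs upward for Mbp, Mobp, Mag and Ermn, from 0.37 to 6.16 for Mbp, while the other 4 pairs run downward.

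Mag (ENSMUSG00000036634, chr7:30899176-30914873, minus strand) encodes myelin-associated glycoprotein, a lectin of the innermost myelin layer that contacts the axon. It was weakly expressed, at 0.91, −1.01, 0.41, 0.59 and 0.33 log2 CPM in control libraries 1 to 5. APP/PS1 libraries 1 to 5 were at −3.65, 0.65, −1.40, −4.85 and −1.47 log2 CPM, the value of library 4 standing for 0 adjusted counts. As for Mbp, the APP/PS1 library was the lower one in pairs 1, 3, 4 and 5 and the higher one in pair 2, where the difference was 1.66 log2 units. The log2 fold change of Mag was −2.39 (SE 1.04, limma adjusted p = 0.661), and −3.40 without pair 2. Without pair 4, in which the difference was −5.43, it was −1.63.
Ermn (ENSMUSG00000026830, chr2:58045113-58052864, minus strand) encodes ermin, a cytoskeletal protein made late in oligodendrocyte maturation. Control libraries 1 to 5 were at 0.45, −2.18, 0.33, 0.39 and 0.28 log2 CPM. The APP/PS1 libraries were at −4.85, −0.54, −2.89, −4.85 and −4.50, with 0 adjusted counts in libraries 1 and 4 and 1 in library 5. Controls 1, 3, 4 and 5 lay within 0.28 to 0.45, above every APP/PS1 library, whereas control 2 lay below APP/PS1 library 2. Its log2 fold change of −3.38 (SE 1.09, limma adjusted p = 0.569) was the lowest of the 14106 genes. The difference was 1.64 in pair 2 and below 0 in the others, and without pair 2 the log2 fold change was −4.63. Since several values were at or near 0 counts, the size depended on the prior count, and it was −5.64 with a smaller prior count. The exons of Ermn overlap those of Galnt5 on the other strand, and whether the counting used strand is not given in the sources used here.

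Gjc3 (ENSMUSG00000056966, chr5:137953461-137963098, minus strand) encodes connexin 29, a gap junction family protein that oligodendrocytes place along the inner myelin membrane. Its level was 1.26, 0.61, 1.13, 1.45 and 1.22 log2 CPM in control libraries 1 to 5 and −0.58, 0.09, −0.41, −1.37 and −0.73 in APP/PS1 libraries 1 to 5. Every control library was above every APP/PS1 library. The log2 fold change was −1.74 (SE 0.310, limma adjusted p = 0.368), with a 95% interval from −2.50 to −0.97. Flipping the signs of the pair differences gave a two-sided exact p of 0.0625, the smallest that 5 pairs allow. The difference was smallest in pair 2, at −0.52, and between −2.82 and −1.54 in the others. Leaving out each pair in turn gave −2.04 to −1.46.
Cldn11 (ENSMUSG00000037625, chr3:31149920-31164324, plus strand) encodes claudin 11, the claudin of the tight junctions between myelin layers, which is also made by cells of the meninges. It was 2.44, 2.02, 2.12, 2.30 and 1.93 log2 CPM in control libraries 1 to 5 and 1.22, 1.75, 1.67, 1.44 and 1.85 in APP/PS1 libraries 1 to 5. The groups did not overlap, although the gap between the lowest control and the highest APP/PS1 library was small. The log2 fold change was −0.58 (SE 0.174, limma adjusted p = 0.569).
Cnp (ENSMUSG00000006782, chr11:100574904-100591729, plus strand) encodes an enzyme of non-compact myelin that hydrolyses cyclic nucleotides. Control libraries 1 to 5 were at 4.92, 4.75, 5.01, 4.84 and 4.91 log2 CPM and APP/PS1 libraries at 4.57, 4.73, 4.47, 4.66 and 4.58. The groups did not overlap, with nearly equal values in pair 2, where the difference was −0.01. The log2 fold change was −0.28 (SE 0.0821, limma adjusted p = 0.556). Exons of Cnp overlap those of Dnajc7 on the other strand. Non-overlapping groups with lower values in APP/PS1 BECs were found for these 3 of the 8 members and for 4.96% of all genes, and lower values in all 5 pairs for the same 3 members and for 5.0% of all genes. Where pair means are nearly equal after batch correction, lower values in all pairs almost force the groups apart. Over all genes, 705 were lower in all 5 pairs and 700 had such groups, so these counts are not separate results. Higher values in all 5 pairs were found for 0 members and for 2.99% of all genes.

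Mal (ENSMUSG00000027375, chr2:127633226-127656695, minus strand) encodes a tetraspan proteolipid of compact myelin and of apical membranes in other tissues. It was the most strongly expressed member, at 9.83, 9.57, 9.59, 9.54 and 9.66 log2 CPM in control libraries 1 to 5 and 9.33, 9.62, 9.61, 9.67 and 9.54 in APP/PS1 libraries 1 to 5. The groups overlapped. The APP/PS1 library was lower in 2 pairs and higher in 3, and the log2 fold change was −0.09 (SE 0.10, limma adjusted p = 0.882), with a 95% interval from −0.33 to 0.16. Without pair 1 it was 0.017. Over all 10 libraries Mal spanned 0.50 log2 units. In control library 2, Mbp minus Mal was −10.8 log2 units per kilobase of exon, and in control library 5 it was −4.12.

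Ordered by mean control level per kilobase of exon, on the scale of log2 CPM per kilobase, Mal was highest at 8.16, followed by Cnp at 3.02, Mbp at 2.47, Cldn11 at 1.26, Mobp at 1.13, Gjc3 at −0.99, Mag at −1.78 and Ermn at −2.01. Of the neighbours in this order, Mal and Cnp were separated by more than their SDs of 0.116 and 0.0983. The steps on either side of Mbp and of Mobp were smaller than the SDs of these genes in control libraries, 2.94 and 3.13 log2 units, with control library 2 far below the others. Gjc3 and Mag were separated by slightly more than either SD, 0.32 and 0.737. Mag and Ermn did not differ beyond their SDs of 0.737 and 1.14. In APP/PS1 libraries, Mbp was at 0.01 and Mobp at −1.57 on the same scale, below Cldn11 at 0.68. The 7 members without Mal made up 0.0246%, 0.00336%, 0.0195%, 0.0155% and 0.0224% of the adjusted counts of control libraries 1 to 5. In APP/PS1 libraries 1 to 5 they made up 0.00301%, 0.0129%, 0.00397%, 0.00304% and 0.00371%. Even in the libraries with the highest values, these genes were thus a minor part of the RNA sequenced. In bulk samples, fewer cells of a type and less RNA per cell cannot be told apart.

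The pattern of 4 lower pairs and a higher pair 2 was shared by Mbp, Mobp, Mag and Ermn, that is 4 of 8 members, and by 8.35% of all genes. This pattern was defined after the values of these members were seen, so its share among them is no independent result. Gjc3, Cldn11 and Cnp were lower in every pair, but each had a smaller difference in pair 2 than in the mean of the others. In pair 2 as a whole, 7 genes were lower and 6 were higher by over 3 log2 units, fewer than the 62 lower and 18 higher genes of pair 1, so pair 2 was not a pair with many large differences. The median difference of all genes in pair 2 was 0.0014.

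**Figure D2:**
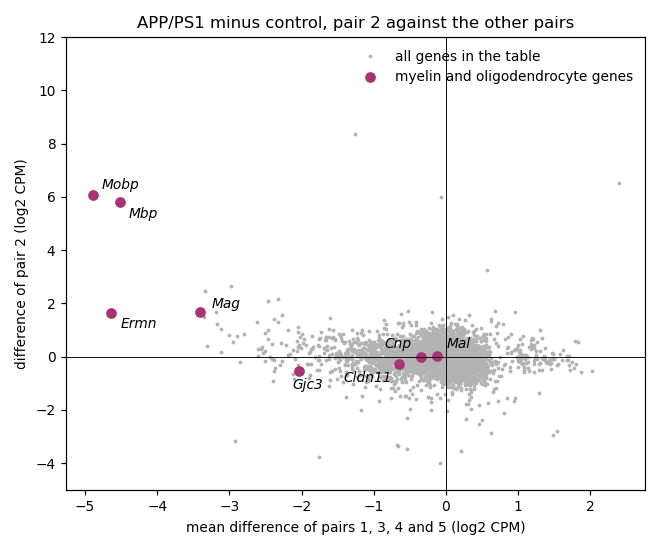
Difference APP/PS1 minus control in pair 2 (vertical axis, log2 CPM) against the mean difference of pairs 1, 3, 4 and 5 (horizontal axis, log2 CPM), with a grey point for each of 14106 genes and coloured points for the 8 members. Mbp (−4.52 and 5.79) and Mobp (−4.90 and 6.09) lie far from the other genes at the upper left, whereas Mal, Cnp and Cldn11 lie in the main cloud.

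The 5 genes outside the set whose pair differences were nearest to the median differences of the members (−3.20, 0.84, −1.67, −3.84 and −1.87 in pairs 1 to 5) were Csdc2, Kcnj10, Kif1a, Camk2a and Kcnj16. Their root mean square distances over the 5 pairs were 0.325 to 0.493 log2 units. Kcnj10 and Kcnj16 encode inward rectifier potassium channel subunits of glia, and Kif1a and Camk2a a motor and a kinase abundant in neurons. Their mean levels lay between −2.11 log2 CPM for Kcnj16 and 2.07 for Kif1a.

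Further genes of the myelin programme were taken from lists written with earlier results of these data known. Among 34 other myelin and mature oligodendrocyte genes, 21 were tested, and 0 were called. Of these, 16 had a mean difference below 0 and the median was −0.28. An unadjusted p under 0.05 (limma) was reached by 6, all lower in APP/PS1 BECs, compared with 5.91% of all genes. The smallest p values belonged to Cryab, a small heat shock protein, at −1.13 (SE 0.291, limma adjusted p = 0.537), and to the actin-severing protein Gsn, at −0.48 (SE 0.138, adjusted p = 0.553). In this list, 8 of the 21 tested genes shared the pattern of 4 lower pairs and a higher pair 2, compared with 8.35% of all genes.
Of 6 lipid enzymes of myelin, 4 were tested, with a median of −0.02. Ugt8a, which makes the myelin lipid galactosylceramide, was at −2.56 (SE 0.737, limma adjusted p = 0.554), with 0.41 in pair 2 and −4.12 to −1.48 in the others. Cers2, a ceramide synthase used by many cell types, was at −0.03 (SE 0.0431, adjusted p = 0.911).
Among the regulators of the lineage, 10 of 12 were tested and 9 had a mean difference below 0, with a median of −0.75. An unadjusted p under 0.05 (limma) was reached by 7, all lower, compared with 5.91% of all genes. Lower values in all 5 pairs were found for 5 regulators, compared with 5.0% of all genes. Myrf, the factor that sustains myelin gene expression, had a mean of 0.26 ± 0.13 (SD, n = 5) log2 CPM in controls against −0.51 ± 0.14 in APP/PS1 BECs. The difference came to −0.76 (SE 0.107, limma adjusted p = 0.303), and Myrf was lower in every pair, at −0.34 in pair 3 and at −0.78 in pair 2. Sox10 was also lower in pair 2, at −1.14, within its range of −1.33 to −0.88 over the pairs. Olig1 was at −0.42 in pair 2 and −1.77 to −0.53 in the others. In pair 2, 8 of the 10 regulators were lower in the APP/PS1 library, in which Mbp, Mobp, Mag and Ermn were higher. Whether the regulators and these 4 genes differ in their response to genotype was not tested.

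**Figure D3:**
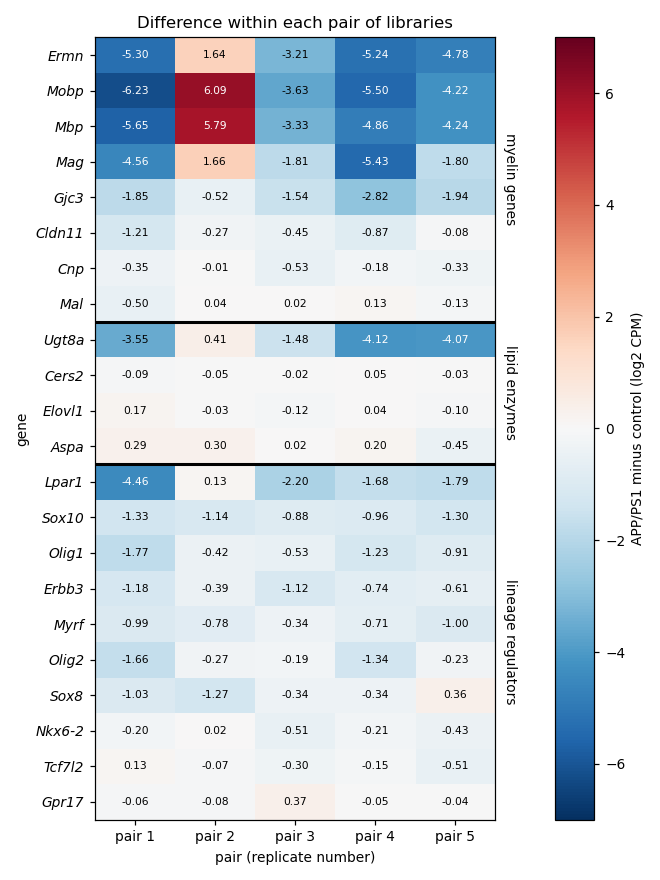
Difference APP/PS1 minus control within each of the 5 pairs (columns, log2 CPM, printed in each cell, colour scale at the right) for the 8 members, the 4 myelin lipid enzymes and the 10 lineage regulators (rows). Sox10 and Myrf are below 0 in every column, whereas Mbp, Mobp, Mag, Ermn and Ugt8a change sign in pair 2.

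Markers of several other cell types were also lower on average in APP/PS1 BECs. Precursor cell markers had a median log2 fold change of −0.56 (5 of 6 tested genes below 0, summed level 5.60 to 6.20 log2 CPM in control and 5.40 to 5.79 in APP/PS1 libraries). Neuronal markers had a median of −0.81 (5 of 6 below 0, summed 6.76 to 7.01 in control and 6.66 to 6.95 in APP/PS1 libraries), with Snap25 at −1.97. Astrocyte markers had a median of −0.84 (11 of 12 below 0, 8.71 to 9.15 and 8.42 to 8.81), and their median was 0.31 in pair 2. Mural cell markers had a median of −0.77 (10 of 10 below 0, 9.19 to 9.94 and 8.22 to 9.18). Of these, 9 were lower at an unadjusted p under 0.05 (limma), compared with 5.91% of all genes. Of 8 fibroblast and meningeal markers listed, 4 were tested, with a median of −0.67 (4 of 4 below 0, 3.88 to 4.60 and 2.87 to 3.82). The summed levels of the mural and of the fibroblast list did not overlap between the genotypes, but the mural ranges nearly touched, at 9.19 and 9.18. Those of the precursor, neuronal, astrocyte, microglia and leukocyte, endothelial and erythroid lists overlapped. The lists are not independent, since Cspg4 stands in both the precursor and the mural list and Pdgfra in both the precursor and the fibroblast list. Among the other myelin genes above, 1 was at 0 adjusted counts in a library. Of the cell type markers listed here, 1 precursor marker was, and 0 markers of the other cell types were. None of these genes was called by limma after adjustment, and their part in the differences of the members was not tested. Microglia and leukocyte markers (median −0.01, 5 of 10 below 0, 5.87 to 6.16 and 5.78 to 6.07) and endothelial markers (median 0.06, 3 of 14 below 0) did not share the direction. Erythroid genes had a median of −1.16 (4 of 4 below 0, 4.88 to 7.91 and 3.84 to 7.25), but followed other pairs, with −3.33 in pair 2 and 2.35 in pair 5.

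**Figure D4:**
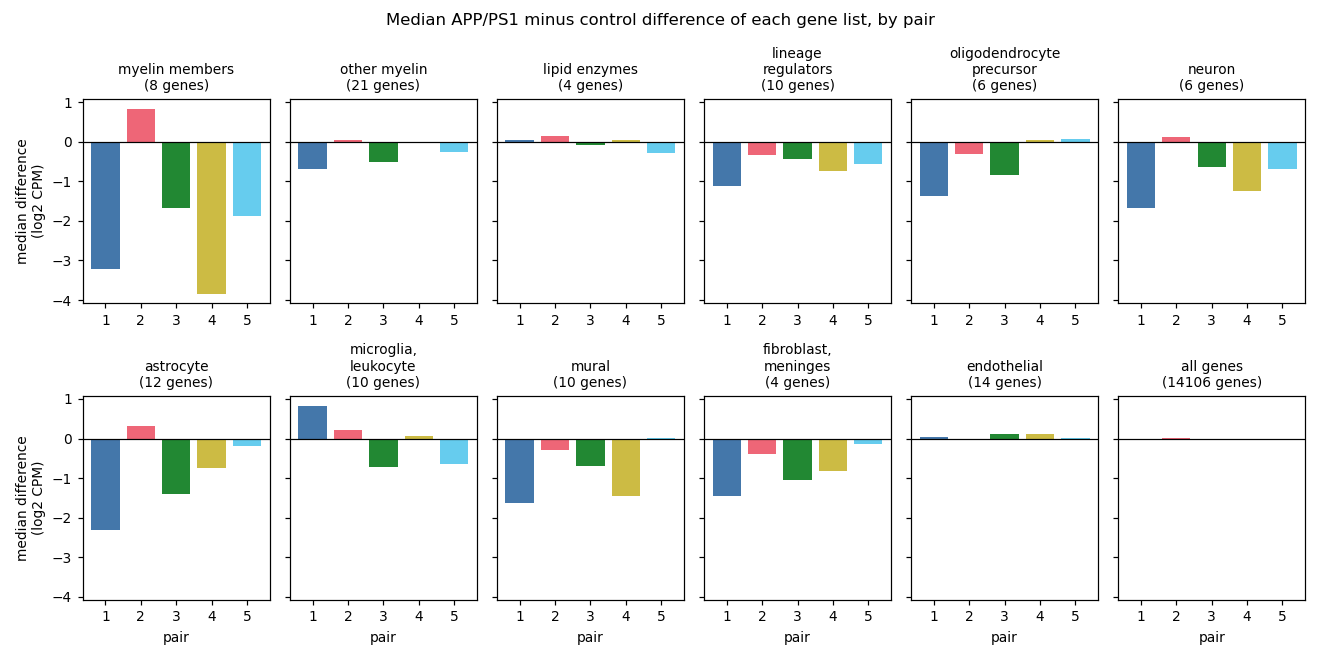
Median difference APP/PS1 minus control (vertical axis, log2 CPM, bars from 0) by pair (horizontal axis) for the members, 10 other gene lists and all genes, without the erythroid list. Among the lists drawn, the members have the longest bar in every pair, from −3.84 in pair 4 to 0.84 in pair 2, and the endothelial list and all genes stay near 0.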

How the data were processed

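The authors used STAR (mm10) for alignment and HTSeq-count for gene counts, removed genes of low expression by filterByExpr, and computed log CPM in edgeR before correcting batches by ComBat. Versions are not given in the sources used here. The deposited values are log2 CPM of 14106 genes, and the 10 single-library files equalled their columns of the table. They converted back to whole adjusted counts (tolerance 1e-06) with a mean prior count of 3. A correction made on log CPM would not leave whole counts, so the deposited values appear to have been corrected as counts. Adjusted counts are no longer reads, so no counting error was computed, and the planned limma fit was kept.

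Symbols, positions and exon lengths came from GENCODE M21 (GRCm38, also called mm10), which named all 14106 genes. lmFit and eBayes of limma 3.58.1 (R 4.3.3) were fitted to all genes with genotype and replicate number as terms, leaving 4 residual degrees of freedom, and were tested on simulated data first. In the labels, the control and the APP/PS1 library of the same number share a batch, numbers 1, 2 and 3 each have a batch of their own, and 4 and 5 lie together in batch 4. Deviations of same-numbered libraries from their group means had rank correlations of −0.999 to −0.989 over 10873 genes, and the 5 pairs were kept as the block.

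The members and lists were chosen with earlier results of these data known. Named genes were the members, the 2 genes of smallest p in a list, some fixed genes of the lineage and the 5 genes of nearest pair differences, and 1 fixed gene is not reported here. List genes other than members with smallest p are given where the result turns on them. Alternatives were no block, the 4 label batches, a variance trend, 2 other library scalings, a prior count of 0.125, a mean of at least 1 log2 CPM, a threshold of 0.10, limma-voom and each pair left out.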

Additional observations from a re-analysis of the deposited data

Results flagged for a closer look

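In 16 groups of 5 libraries (8 members in each genotype), 3 held a library whose gap to the nearest other exceeded 0.71 of the range of its group. All 3 were control replicate 2, at 0.37 log2 CPM for Mbp, −1.69 for Mobp and −2.18 for Ermn. About 1 in 20 groups is found by chance. The 3 values come from the same library and are not independent.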

How the results depend on the processing

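The direction of Mbp, Mobp, Mag, Cnp, Cldn11, Ermn and Gjc3 was below 0 under every alternative tried for them, and that of Mal under all but 1 (without replicate 1, 0.017). With no block, the 4 label batches, the variance trend or the cut on mean level, the log2 fold changes of the members tested equal the main fit by construction. Those settings therefore could not change a direction. Without the replicate block, which leaves 8 residual degrees of freedom on values whose pair means were nearly equal for most genes, the log2 fold changes were equal by construction, but limma called Cnp (−0.28, adjusted p = 0.0328), Cldn11 (−0.58, 0.0478) and Gjc3 (−1.74, 0.00867), that is 3 members (over the alternatives their adjusted p ran from 0.0328 to 0.929, 0.0478 to 0.929 and 0.00867 to 0.929), and 648 genes in all, with 1837 lower and 1212 higher at an unadjusted p under 0.05. With the 4 label batches 1 gene was called (Sox10), and 517 genes were higher at an unadjusted p under 0.05. With library size alone 156 were higher, and the median of all genes moved to −0.04. A mean of at least 1 log2 CPM left 5 members, of which 5 were lower and 2 had an unadjusted p under 0.05, because Mag, Ermn and Gjc3 were not tested, and brought the median of the regulators to −0.08.

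With each pair left out in turn, Mbp ranged from −4.52 to −1.66, Mobp from −4.90 to −1.82, Mag from −3.40 to −1.63, Ermn from −4.63 to −2.90, Gjc3 from −2.04 to −1.46, Cldn11 from −0.70 to −0.42, Cnp from −0.35 to −0.22 and Mal from −0.14 to 0.017. The median of the members ranged from −2.72 to −1.55. Between 7 and 8 members were lower, 2 (without pair 4) to 7 (without pair 2) had an unadjusted p under 0.05, and 0 were called. Over all genes 0 to 5 were called, 517 (without pair 1) to 1182 (without pair 2) were lower and 201 to 826 higher at an unadjusted p under 0.05. The 5 genes called without pair 2 were Neurl1a, Anks1b, Pde1b, Shank2 and Car12, and the 1 without pair 5 was Prg2. Few adjusted counts limit Mag and Ermn most.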

Other observations

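Measured from Mbp alone, which was chosen with its values in view, the genes with the nearest pair differences were Mobp (root mean square distance 0.427 log2 units over the 5 pairs), Ermn (1.89), Bcas1 (1.93), Plekhb1 (2.02) and Mag (2.32), so that 3 of the 5 nearest of 14105 genes were members. Bcas1, a gene of oligodendrocytes that are forming myelin, differed by −3.53, 2.46, −1.84, −3.95 and −4.05 log2 units in pairs 1 to 5. Plekhb1 differed by −3.70, 2.64, −2.64, −2.95 and −2.64. Both come from the list of other myelin genes, and in pair 2 they were the genes ranked 8 and 7 by height of the difference, after Mobp at rank 3 and Mbp at rank 5.

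From Gjc3, the 5 nearest genes were Rph3a (0.441), Sept3 (0.447), Shank1 (0.515), Arnt2 (0.569) and Cplx1 (0.593), and 0 of the 5 were members.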
